A study of Mus musculus with 9 samples.

Results

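Tmem50b, Dnajc28, Gart, Son, Donson, Cryzl1 and Itsn1 are 7 neighbouring protein-coding genes on mouse chromosome 16 that lie within the segment duplicated in Dp1Tyb mice. They were chosen by position, as the genes between the proximal edge of Tmem50b and the distal edge of Itsn1 (chr16:91574503-91920597, GRCm38, GENCODE M21), a stretch of 346 kb. The 7 genes were among 43629 genes listed in the count table and among 89 genes of the duplicated segment that had enough reads to be tested. RNA from mouse embryonic fibroblasts (MEFs), the connective tissue cells that grow out of a dissociated embryo, was sequenced from 4 wild-type (WT) and 5 Dp1Tyb cultures. All cultures were made from E14.5 embryos, which had been decapitated and eviscerated before dissociation. Their strain label was C57BL/6J.129P2, and per the methods all mice had been backcrossed to C57BL/6JNimr. The Dp1Tyb cultures carried Dp(16Lipi-Zbtb21)1TybEmcf, an extra copy in tandem of the chromosome 16 segment from Lipi to Zbtb21, so every gene in it is at 3 copies in place of 2 in all cells of the embryo. No driver line or transgene restricts the duplication to a cell type, and the control cultures came from WT littermates.

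MEFs of this duplication are used to study Down syndrome because the mouse segment holds many of the genes found on human chromosome 21. An extra copy of a gene is known to raise its transcript in proportion to copy number when nothing else adjusts it, and 3 copies in place of 2 then give 1.5-fold, or 0.58 on the log2 scale. Genes packed this closely often share a promoter region, with 2 start sites facing away from each other, and their transcripts can overlap where the genes converge. The question asked of the 7 genes was how evenly they follow the extra copy.

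The genes lay in 2 head-to-head pairs joined by a tail-to-tail pair. Gart (minus strand) and Son (plus strand) started 553 bases apart and ran away from each other, as did Cryzl1 (minus) and Itsn1 (plus), with 305 bases between them. Son and Donson (minus) converged, and their annotated gene bodies overlapped by 2414 bases. Donson and Cryzl1 followed each other on the minus strand with 551 bases between them, and Tmem50b, Dnajc28 and Gart also followed each other on that strand, separated by 16453 and 2159 bases.

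The sequences before 4 of the starts are printed because 3 of them lie between the starts of head-to-head genes and the fourth belongs to Dnajc28, the member with the lowest fold change. They are RefSeq promoter sequences (GRCm38.p6), read 5′ to 3′ on the strand of the gene and limited to bases that lie ahead of every annotated transcript of that gene. Capitals mark CCAAT boxes (CCAAT, which reads as ATTGG when it lies on the opposite strand) and GC boxes (GGGCGG, which then reads as CCGCCC). The Gart sequence is chr16:91646973-91647222 on the minus strand, the Cryzl1 sequence is chr16:91728976-91729052 on the minus strand, the Itsn1 sequence is chr16:91729121-91729280 on the plus strand and the Dnajc28 sequence is chr16:91619027-91619249 on the minus strand.
Gart: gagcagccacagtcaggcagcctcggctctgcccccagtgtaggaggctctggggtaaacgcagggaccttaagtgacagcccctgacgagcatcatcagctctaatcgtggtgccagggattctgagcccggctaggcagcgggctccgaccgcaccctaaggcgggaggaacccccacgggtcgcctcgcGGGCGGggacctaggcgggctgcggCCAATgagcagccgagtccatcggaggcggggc
Cryzl1: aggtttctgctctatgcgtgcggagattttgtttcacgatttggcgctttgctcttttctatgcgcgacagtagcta
Itsn1: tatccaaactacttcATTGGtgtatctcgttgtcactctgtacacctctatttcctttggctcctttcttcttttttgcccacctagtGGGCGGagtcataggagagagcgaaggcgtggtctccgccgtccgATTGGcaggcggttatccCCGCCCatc
Dnajc28: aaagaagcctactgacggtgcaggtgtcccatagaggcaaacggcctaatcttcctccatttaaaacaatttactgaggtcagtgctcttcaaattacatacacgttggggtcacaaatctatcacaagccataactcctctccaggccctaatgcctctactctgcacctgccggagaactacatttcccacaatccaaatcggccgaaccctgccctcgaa

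All 7 members had a RefSeq promoter window, which runs from 250 bases before the start to 50 after it. The windows were searched on both strands for the CCAAT box, the GC box, the TATA box (TATAAA) and the core of the sites of ETS factors (CCGGAA), each counted by itself although matches to different motifs can overlap by a few letters. Of all 32851 promoter windows, 37.4% held a CCAAT box, 35.7% a GC box, 13.6% a TATA box and 14.9% an ETS core. The Dnajc28 window held none of the 4 motifs. The Cryzl1 window held 1 CCAAT box and 1 GC box, neither of them wholly within the stretch printed above. The windows of Tmem50b, Donson and Itsn1 held 5 GC boxes each, that of Son held 3 CCAAT boxes, and no member's window held a TATA box. Counts of the dinucleotide CG, the site of DNA methylation, ran from 13 in Dnajc28 and 16 in Cryzl1 through 23 in Itsn1, 26 in Gart, 31 in Son and 35 in Tmem50b to 46 in Donson, against a median of 7 over all windows. A motif match is a description of the letters in the window.

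The libraries held 25571442 to 30009361 counts in WT and 24804539 to 26782380 in Dp1Tyb. The 10 fibroblast markers were the most abundant of the marker lists, with a summed level of 1243456 to 1539235 normalised counts in WT and 1088416 to 1804525 in Dp1Tyb. The 4 skeletal muscle markers, mostly Des, summed to 180 to 427 in WT and 346 to 1020 in Dp1Tyb, while Myod1 and Myog were at or below 3 counts in every library. Myh3, with only 1 to 30 counts per library, was higher in every Dp1Tyb than in every WT culture. It was at 3.86 to 30.3 against 1.04 to 2.04 normalised counts. Sox10 and Erbb3, markers of Schwann and neural crest cells, were lower in every Dp1Tyb than in every WT culture, at 42.8 to 179 against 197 to 444 normalised counts for Sox10 and 62.1 to 221 against 243 to 537 for Erbb3. The part of these cells in the results was not tested, and none of the markers given here passed the test. The macrophage, endothelial and epithelial marker sums overlapped between the genotypes, as did the fibroblast and skeletal muscle sums, and the erythroid sum was at most 4.83, with 3 of its 4 markers, among them Hba-a1 and Hbb-bt, absent or nearly so. In bulk RNA, fewer cells of a type and less RNA per cell cannot be told apart. The sample descriptions use 2 prefixes, one on WT replicate 1 and Dp1Tyb replicate 1 and the other on the remaining 3 WT and 4 Dp1Tyb cultures. The labels do not say what the prefix marks. Within the larger set the members' log2 fold changes were 0.55 for Tmem50b, 0.40 for Dnajc28, 0.75 for Gart, 0.76 for Son, 0.59 for Donson, 0.93 for Cryzl1 and 0.60 for Itsn1.

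All 7 genes had a higher mean in Dp1Tyb than in WT, with log2 fold changes from 0.27 (Dnajc28) to 0.93 (Cryzl1), the latter 1.91-fold. Cryzl1 and Son rose (2 of 7, by the quasi-likelihood test of edgeR, with p-values adjusted by Benjamini-Hochberg over all 14567 genes tested). For comparison, 24.7% of the tested genes of the duplicated segment and 0.165% of all genes tested were called higher by the same rule, so a count of 2 of 7 was near that of the segment. In 5 of the 7 (Tmem50b, Gart, Son, Donson and Cryzl1) the lowest Dp1Tyb culture exceeded the highest WT culture, which was also so for 51.7% of the tested genes of the segment and 0.686% of all genes tested. DESeq2 without its shrinkage of fold changes called 4 of the 7 (Cryzl1, Son, Donson and Gart), where it called 39.4% of the segment's genes and 0.293% of all genes higher. Neither tool called Tmem50b, Dnajc28 or Itsn1.

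**Figure D1:**
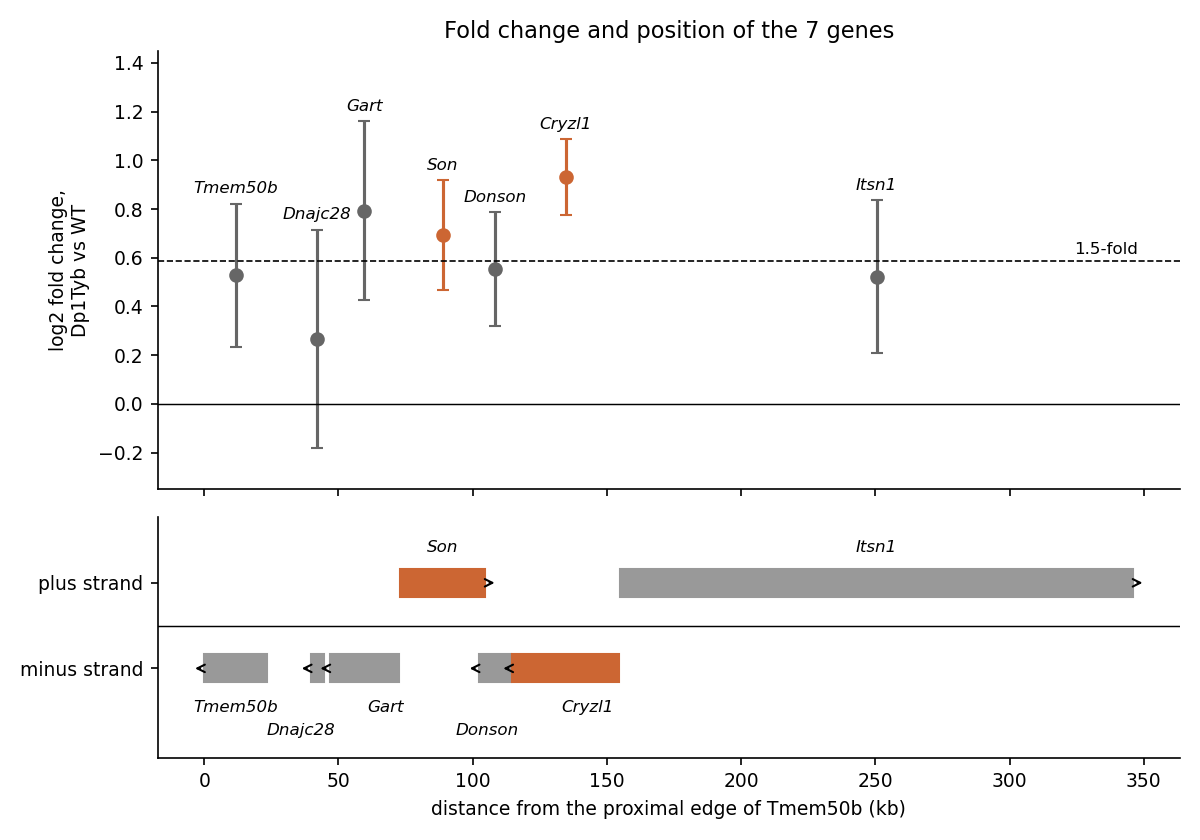
The upper panel plots the log2 fold change of Dp1Tyb over WT for each gene with its 95% interval, at the midpoint of the gene, and the lower panel draws the genes to scale by strand, in kb from the proximal edge of Tmem50b, with arrows for the direction of transcription. Orange marks the 2 genes that passed the test (Son and Cryzl1), and the dashed line is 1.5-fold. Cryzl1 is the gene whose interval lies wholly above that line.

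Gart encodes the trifunctional enzyme that carries out 3 of the steps of de novo purine synthesis. Its normalised counts (counts scaled to a common effective library size) were 1486, 1800, 1562 and 1596 in WT replicates 1 to 4. In Dp1Tyb replicates 1 to 5 they were 2805, 4013, 2282, 2384 and 2470. The 2 genotypes did not overlap, and Dp1Tyb replicate 2 stood highest, at 2.49 times the WT mean where the other 4 were at 1.42 to 1.74 times. The means were 1611 ± 134 (SD, n = 4) and 2791 ± 711 (SD, n = 5), a log2 fold change of 0.79 (SE 0.16, 95% interval 0.43 to 1.16), which did not pass the test with all cultures (edgeR's quasi-likelihood test, adjusted p = 0.256). Without Dp1Tyb replicate 2 the log2 fold change was 0.63 and Gart passed the test (edgeR, adjusted p = 0.0291). Of the exon bases of Gart, 19.7% are shared with the antisense gene Gm15964, which had at most 1 count in any culture.

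Son encodes a large scaffold protein of nuclear speckles that is needed for the splicing of weak introns. It was the most abundant member, with normalised counts of 11335, 9925, 8623 and 10600 in WT replicates 1 to 4. The Dp1Tyb cultures 1 to 5 had 16199, 14951, 15468, 18259 and 16902. The groups were well apart, and the Dp1Tyb cultures differed among themselves by less than those of Gart (coefficient of variation 7.92% against 25.5%). Son rose from 10121 ± 1153 (SD, n = 4) to 16356 ± 1295 (SD, n = 5), a log2 fold change of 0.69 (SE 0.10, 95% interval 0.47 to 0.92; edgeR's quasi-likelihood test, adjusted p = 0.0395). This call was close to the threshold: leaving out any of WT replicates 2, 3 and 4 or Dp1Tyb replicates 1, 3, 4 and 5 gave adjusted p values of 0.0904 to 0.187 in the same test, with log2 fold changes of 0.62 to 0.72. The call was also lost within the larger label set, where the log2 fold change was 0.76 (edgeR, adjusted p = 0.152).

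Donson encodes a replication fork protein needed for loading the replicative helicase and for genome stability. Its normalised counts were low and tight, at 157, 135, 160 and 160 in WT replicates 1 to 4 and 207, 218, 221, 240 and 237 in Dp1Tyb replicates 1 to 5. No Dp1Tyb culture fell into the WT range, and WT replicate 2 was the lowest of all. The means were 153 ± 12.2 (SD, n = 4) and 225 ± 13.7 (SD, n = 5), and the log2 fold change of 0.55 (SE 0.10, 95% interval 0.32 to 0.79) missed the threshold (edgeR's quasi-likelihood test, adjusted p = 0.163) but passed it in DESeq2 (adjusted p = 0.000657). The overlap with Son covers 103 exon bases, or 3.29% of the exon bases of Donson and 0.691% of those of Son. A further 287 exon bases of Donson (9.17%) lie in a same-strand gene that shares the name Atp5o and was not listed in the count table.

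Cryzl1 encodes a protein of the zeta-crystallin quinone oxidoreductase family that also belongs to the FERRY complex, which links messenger RNA to early endosomes. It had the largest change of the 7 and the smallest relative spread between cultures in both genotypes (coefficient of variation 7.24% in WT and 4.73% in Dp1Tyb). Normalised counts were 817, 822, 876 and 952 in WT replicates 1 to 4 and 1531, 1623, 1707, 1673 and 1726 in Dp1Tyb replicates 1 to 5. Each Dp1Tyb culture was at 1.77 to 1.99 times the WT mean, so each lay above the 1.5-fold that the copy number would give. Cryzl1 rose from 866 ± 62.7 (SD, n = 4) to 1652 ± 78.2 (SD, n = 5), with a log2 fold change of 0.93 (SE 0.07; edgeR's quasi-likelihood test, adjusted p = 0.00211). The 95% interval of the fold, 1.71 to 2.12, did not hold 1.5, in contrast to the intervals of the other 6 members. Cryzl1 passed the edgeR test without any single culture (adjusted p 0.00272 to 0.0246). It shares 9.80% of its exon bases with the antisense gene Gm10785, which had 1 to 9 counts per culture.

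Itsn1 encodes intersectin 1, a scaffold protein of clathrin-mediated endocytosis. Normalised counts were 4882, 3604, 3640 and 3705 in WT replicates 1 to 4 and 6311, 4283, 6380, 6044 and 5404 in Dp1Tyb replicates 1 to 5. The groups overlapped, since WT replicate 1 was above Dp1Tyb replicate 2. With means of 3958 ± 618 (SD, n = 4) and 5685 ± 873 (SD, n = 5), the log2 fold change was 0.52 (SE 0.14, 95% interval 0.21 to 0.84; edgeR's quasi-likelihood test, adjusted p = 0.703). A two-sided exact permutation test of the log2 level over all relabelings of the 9 cultures gave p = 0.0317, and over the 35 relabelings of the larger label set p = 0.0571.

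Dnajc28 encodes a J-domain protein, a family of co-chaperones of Hsp70. It was the least abundant member and had the smallest change, with normalised counts of 97, 62, 72 and 58 in WT replicates 1 to 4 and 98, 70, 101, 75 and 92 in Dp1Tyb replicates 1 to 5. WT replicate 1 was above 3 of the 5 Dp1Tyb cultures. The means were 72.4 ± 17.5 (SD, n = 4) and 87.3 ± 13.9 (SD, n = 5), and the log2 fold change was 0.27 (SE 0.20; edgeR's quasi-likelihood test, adjusted p = 0.9997). Its 95% interval, -0.18 to 0.72, held both no change and 1.5-fold, so a copy-number change was not told apart from none in these cultures (exact permutation test, two-sided, p = 0.190). For the cultures of the larger label set, which leaves out replicate 1 of both genotypes, the log2 fold change was 0.40 (edgeR, adjusted p = 0.9998).

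Tmem50b encodes a small membrane protein of the endoplasmic reticulum and Golgi. Normalised counts were 617, 743, 592 and 606 in WT replicates 1 to 4 and 814, 1213, 880, 826 and 882 in Dp1Tyb replicates 1 to 5. The groups did not overlap, and replicate 2 was the highest culture in both genotypes. The means were 639 ± 69.9 (SD, n = 4) and 923 ± 165 (SD, n = 5), with a log2 fold change of 0.53 (SE 0.13, 95% interval 0.24 to 0.82; edgeR's quasi-likelihood test, adjusted p = 0.547).

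**Figure D2:**
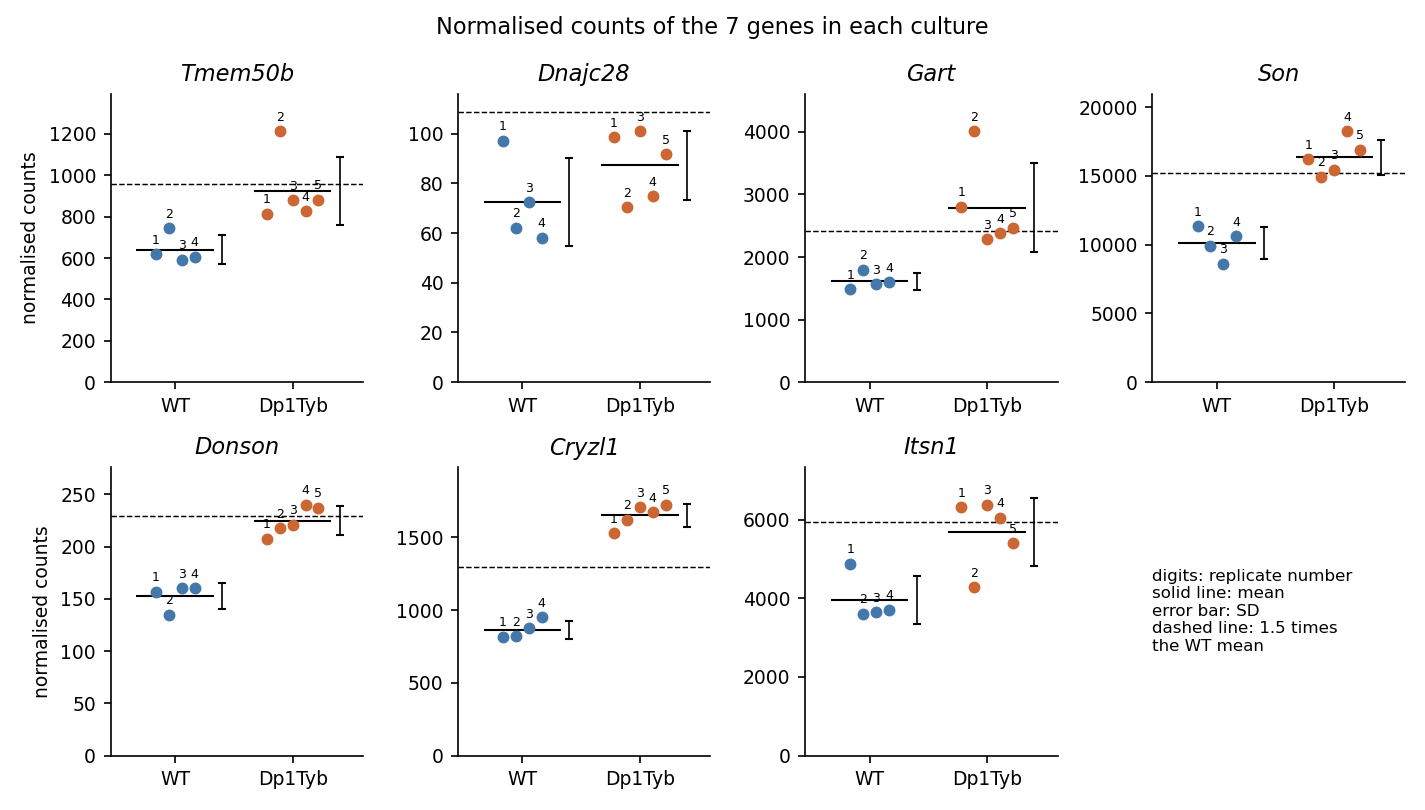
Each panel plots the normalised counts of 1 gene for the 4 WT (blue) and 5 Dp1Tyb (orange) cultures, numbered by replicate, with the mean as a solid line, the SD as the bar beside it and 1.5 times the WT mean as a dashed line. All Cryzl1 points of Dp1Tyb lie above the dashed line, all Dnajc28 points lie below it, and Dp1Tyb replicate 2 is the highest Dp1Tyb culture for Tmem50b and Gart and the lowest for Dnajc28, Son and Itsn1.

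Per kilobase of exon, the members spanned a wide range of levels. Expressed as RPKM (counts scaled by exon length and library size), WT levels ran from Son (25.7 ± 2.93, SD, n = 4) through Gart (11.8 ± 0.987), Tmem50b (9.89 ± 1.08), Cryzl1 (7.24 ± 0.524), Itsn1 (6.39 ± 0.997) and Donson (1.85 ± 0.148) to Dnajc28 (0.769 ± 0.186). Gart and Tmem50b overlapped between WT cultures in this order, as did Cryzl1 and Itsn1, while the other neighbours in the order were separate. The Dp1Tyb means were 41.5 for Son, 20.5 for Gart, 14.3 for Tmem50b, 13.8 for Cryzl1, 9.18 for Itsn1, 2.72 for Donson and 0.926 for Dnajc28. These means kept the WT order, but for Tmem50b and Cryzl1 that rested on Dp1Tyb replicate 2 (18.8 against 13.6). In Dp1Tyb replicates 1, 3, 4 and 5 Cryzl1 was the higher, at 12.8, 14.3, 14.0 and 14.4 against 12.6, 13.6, 12.8 and 13.6 for Tmem50b.

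Averaged over the 7 genes, the cultures of each genotype were close together. The mean log2 level relative to the WT mean was 0.10, -0.03, -0.05 and -0.02 in WT replicates 1 to 4. In Dp1Tyb replicates 1 to 5 it was 0.61, 0.62, 0.61, 0.59 and 0.61. The SD over the Dp1Tyb cultures was 0.013, against 0.071 over the WT cultures, and the mean of the 5 was 1.52-fold the WT level, beside the 1.5-fold of 3 copies to 2. The members' own fold changes had a mean of 0.61, a median of 0.55 and an SD of 0.22 on the log2 scale, with 0.66 between the lowest and the highest. The intervals of 6 of the 7 members held 1.5-fold and those of 6 of the 7 lay above 0, the exceptions being Cryzl1 and Dnajc28 respectively.

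The evenness of the mean did not extend to single genes within a culture. Dp1Tyb replicate 2 ran from -0.01 (Dnajc28) to 1.32 (Gart), a span of 1.33 on the log2 scale, while the spans of the other 4 Dp1Tyb cultures were 0.470 to 0.875 and those of the WT cultures 0.291 to 0.560. Its mean of 0.62 was nevertheless the highest of the 5 by a small margin. Cryzl1 was the highest member in the other 4 Dp1Tyb cultures, and either Tmem50b or Dnajc28 was the lowest in each of them. WT replicate 2 and Dp1Tyb replicate 2 had the lowest fibroblast marker sum (1243456 and 1088416) and the highest endothelial marker sum (359 and 424) of their genotypes. The endothelial sum was mostly Kdr, with at most 355 normalised counts in WT and 404 in Dp1Tyb. Pecam1, Cdh5 and Tie1 had at most 15, 26 and 12 counts in any culture, so the sum says little about them. Those highest counts were in Dp1Tyb replicate 3, so these markers did not follow the sum in Dp1Tyb. The fibroblast markers did not all follow their sum either, since Vim was highest among the WT cultures in WT replicate 2 (126837 normalised counts). The part of these marker sums in the spread was not tested. Without both replicate 2 cultures, an alternative added after the data had been seen, the mean log2 fold change of the cluster was 0.59 and the distance from lowest to highest member 0.65.

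**Figure D3:**
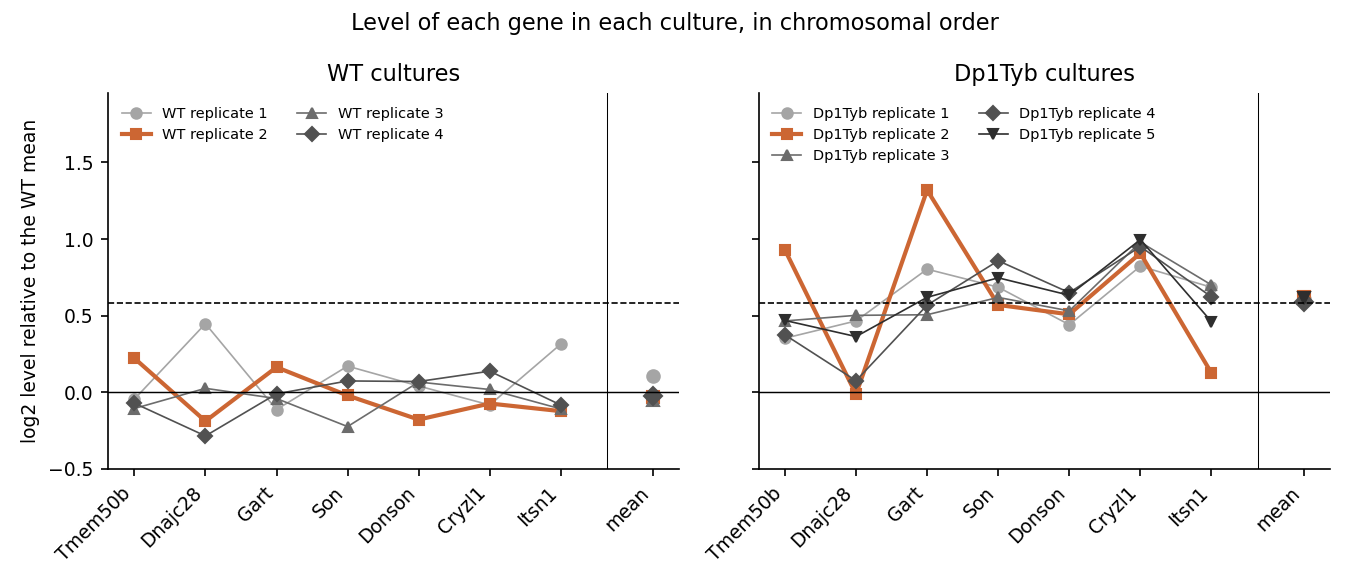
Log2 level of each gene relative to its WT mean in each WT culture (left) and each Dp1Tyb culture (right), in chromosomal order, with the mean over the 7 genes at the far right of each panel and 1.5-fold as a dashed line. The Dp1Tyb means coincide between 0.59 and 0.62, while the line of Dp1Tyb replicate 2 (orange) runs from -0.01 at Dnajc28 to 1.32 at Gart.

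Ratios between 2 members in the same culture need no library scaling, and they were compared between genotypes for all 21 pairs. None of the 21 differences passed an exact permutation test (two-sided) after Benjamini-Hochberg adjustment, where the lowest adjusted p was 0.167. Without adjustment 5 pairs had p below 0.05, and 4 of these 5 held Cryzl1. With 9 cultures the smallest possible p is 0.00794, and 4 pairs at that value would be needed for an adjusted p below 0.05. Uneven behaviour of the members was therefore not shown by this test, and even behaviour was not shown either.

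The Gart to Son ratio showed no detectable difference between the genotypes. WT replicates 1 to 4 had 13.1, 18.1, 18.1 and 15.1 Gart counts per 100 Son counts, and Dp1Tyb replicates 1 to 5 had 17.3, 26.8, 14.8, 13.1 and 14.6. The groups overlapped broadly, and the Dp1Tyb minus WT difference of the log2 ratio was 0.07 (exact permutation test, two-sided, unadjusted p = 0.833). Its direction turned to -0.10 without Dp1Tyb replicate 2 and to -0.03 without WT replicate 1.

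The ratio of Cryzl1 to Itsn1, the other head-to-head pair, had a higher mean in Dp1Tyb but did not pass the adjusted test. WT replicates 1 to 4 had 16.7, 22.8, 24.1 and 25.7 Cryzl1 counts per 100 Itsn1 counts, and Dp1Tyb replicates 1 to 5 had 24.3, 37.9, 26.8, 27.7 and 31.9. WT replicate 4 lay within the Dp1Tyb range. The log2 ratio differed by 0.41 (exact permutation test, two-sided, unadjusted p = 0.0317 and adjusted p = 0.167 over the 21 pairs), and by 0.35 within the larger label set (exact p = 0.0857).

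Donson and Cryzl1, which follow each other on the minus strand, were the pair whose ratios did not overlap between the genotypes. There were 19.2, 16.4, 18.3 and 16.8 Donson counts per 100 Cryzl1 counts in WT replicates 1 to 4, and 13.6, 13.4, 12.9, 14.4 and 13.7 in Dp1Tyb replicates 1 to 5. The difference of the log2 ratio was -0.38 (exact permutation test, two-sided, unadjusted p = 0.00794 and adjusted p = 0.167 over the 21 pairs). Within the larger label set it was -0.34 (exact p = 0.0286, the smallest p that its 35 relabelings allow). The tail-to-tail pair of Son and Donson differed by 0.14 (exact permutation test, unadjusted p = 0.175).

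**Figure D4:**
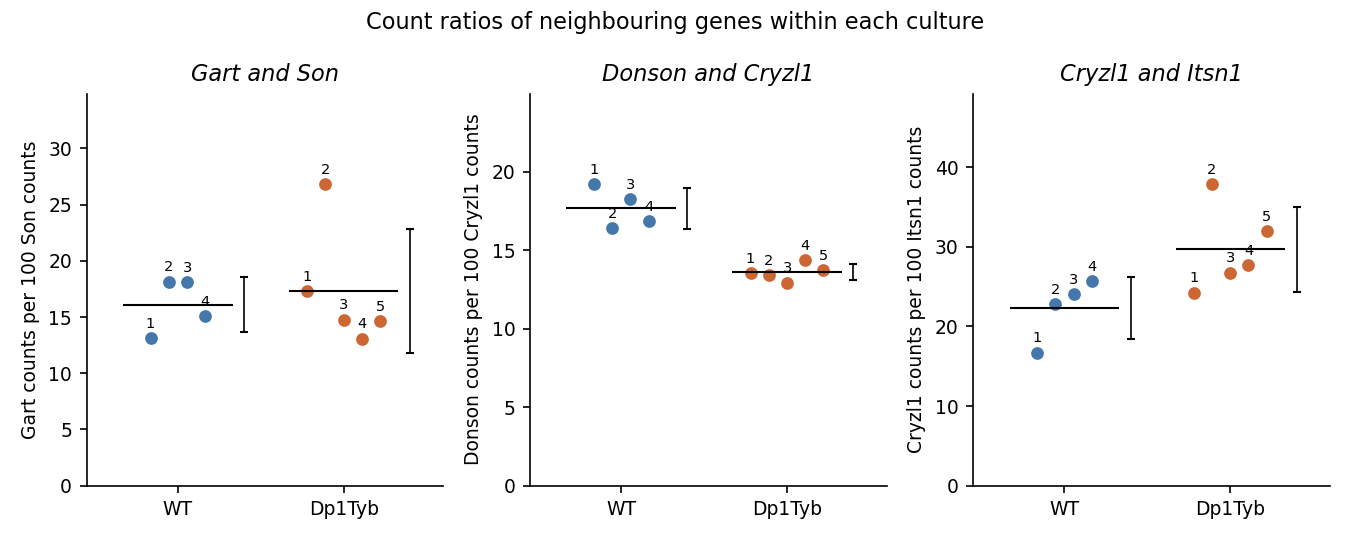
Counts of the first gene per 100 counts of the second in each culture, for the 2 head-to-head pairs and for Donson and Cryzl1, with replicate numbers, group means (lines) and SD (bars). Donson per 100 Cryzl1 counts is 16.4 to 19.2 in WT and 12.9 to 14.4 in Dp1Tyb, and the other 2 ratios overlap between the genotypes.

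Set among the duplicated segment, the cluster lay around its middle. The 89 tested genes of the segment had a median log2 fold change of 0.58, with quartiles of 0.46 and 0.68 and an SD of 0.32, and 83 of them were above 0. Cryzl1 ranked 6 of 89 by fold change, Gart 12 and Son 20, followed by Donson at 51, Tmem50b at 55, Itsn1 at 58 and Dnajc28 at 77. Thus 3 of the 7 members were above the segment's median, and 3 lay between its quartiles. Over all genes tested the median was 0.00.

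**Figure D5:**
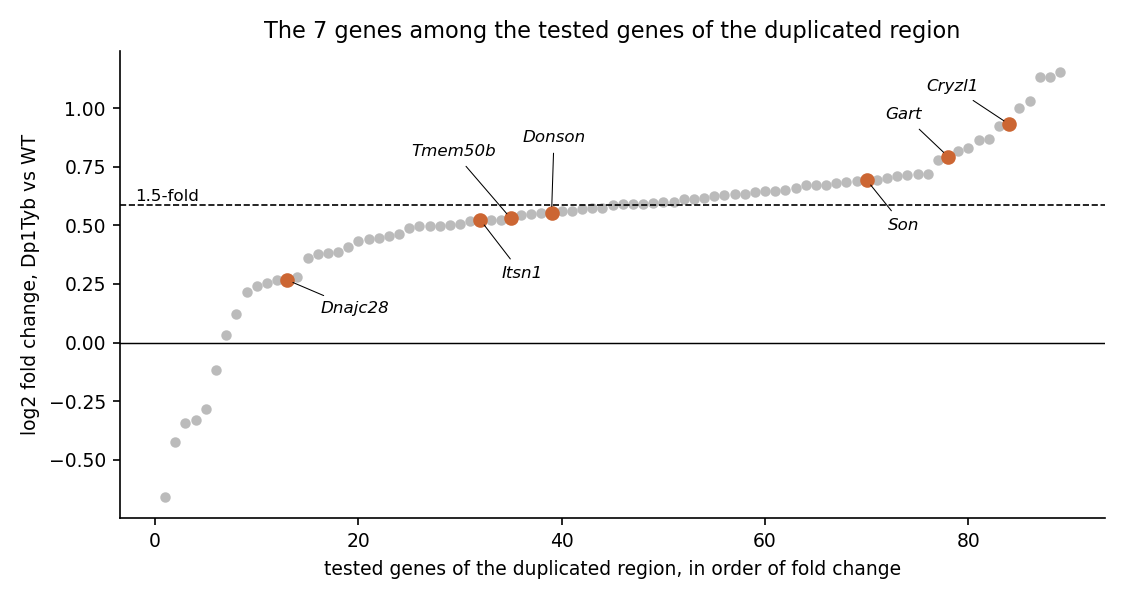
Log2 fold change of Dp1Tyb over WT for the 89 tested genes of the duplicated segment, in order, with the 7 members in orange and 1.5-fold as a dashed line. The members run from 0.27 (Dnajc28) to 0.93 (Cryzl1) on both sides of the segment's median of 0.58.

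The 5 tested genes on each side of the cluster ranged from -0.66 to 0.86 on the log2 scale. On the proximal side lie 4 cytokine receptor genes, and all of them rose: Ifnar2 by 0.67 (SE 0.09, edgeR adjusted p = 0.0263), Il10rb by 0.60 (SE 0.08, adjusted p = 0.0183), Ifnar1 by 0.86 (SE 0.09, adjusted p = 0.0102) and Ifngr2 by 0.68 (SE 0.07, adjusted p = 0.0102). The fifth, Olig1, a transcription factor gene of the oligodendrocyte lineage, had 2 to 15 counts per culture and a log2 fold change of -0.66 (SE 0.49). None of the 5 distal genes passed the test, with log2 fold changes of 0.59 for Atp5o (a subunit of the mitochondrial ATP synthase), 0.69 for Mrps6 (a mitochondrial ribosomal protein), 0.52 for Slc5a3 (the myo-inositol transporter), 0.50 for Smim11 and 0.27 for Rcan1 (an inhibitor of calcineurin). In all, 4 of the 10 neighbours passed the test and 6 did not overlap between the genotypes, with a median of 0.60. For comparison, 24.7% of the segment's tested genes were called higher and 51.7% did not overlap. Over all genes tested these shares were 0.165% and 0.686%. Mrps6 and Slc5a3 start at almost the same position on the same strand, so the split of counts between them is uncertain. Of the 2 other listed genes inside the cluster, both antisense, neither had enough reads to be tested.

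The genes whose level over the 9 cultures was most like the mean of the cluster all lay in the duplicated segment. That mean differed by 0.61 between the genotypes, with an SD of 0.071 within WT and 0.013 within Dp1Tyb. The measure therefore favours genes at 3 copies with little spread, and their place in the segment is no separate result. By the root mean square difference on the log2 scale, the nearest were Usp25 (0.071), Gabpa (0.077), Hmgn1 (0.080), Dyrk1a (0.086) and Morc3 (0.089). Of the members themselves, Donson was nearest to the mean of the cluster (0.11) and Dnajc28 farthest (0.33), and the mean includes them.

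Genes known to act with the members, or related to them, were followed through 8 lists with 112 tested genes, none of which passed the test (edgeR, with 4 genes at an unadjusted p below 0.05 and, for comparison, 456 of all 14567). Of the 12 other genes of de novo purine synthesis and its branches, 8 had a log2 fold change above 0 and the median was 0.06, with the largest differences in Adssl1 (-0.34, SE 0.27) and Ppat (0.21, SE 0.15). The median level of this list was 0.32 in Dp1Tyb replicate 2, the culture with the highest Gart, against -0.04 to 0.05 in the other Dp1Tyb cultures and -0.07 to 0.10 in WT. The 18 nuclear speckle and splicing genes had a median of -0.01, led by the speckle RNA Malat1 (0.24, SE 0.21) and the splicing factor gene Srsf4 (-0.14, SE 0.08).

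Of 22 replication fork genes 19 had values below 0, with a median of -0.15 beside 0.00 over all genes tested, and none passed the test. The median level of this list overlapped between the genotypes. It was -0.11 to 0.08 in the WT cultures and -0.34 to 0.01 in the Dp1Tyb cultures, with Dp1Tyb replicate 4 the lowest. The largest differences were in Gins3, a subunit of the helicase complex (-0.44, SE 0.16), and Mcm10, a helicase activator (-0.32, SE 0.18). Donson differed in sign from most of the list, without a test of that difference. It lies in the duplicated segment, and none of the listed genes does. For the 24 genes of clathrin-mediated endocytosis the median was 0.04, and the largest value belonged to Synj1, a phosphatase gene that itself lies in the duplicated segment (0.56, SE 0.09, edgeR adjusted p = 0.0597), followed by Picalm (0.31, SE 0.16).

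The 4 other FERRY complex genes had a median of -0.06, with values of -0.18 (SE 0.14) for Tbck and -0.07 (SE 0.12) for Gatd1. The 7 quinone oxidoreductase relatives of Cryzl1 had a median of 0.01, with Vat1l at -0.91 (SE 0.25, edgeR adjusted p = 0.749) and Mecr at -0.08 (SE 0.14). Of 25 listed genes of the DnaJ C subfamily 24 were tested, and their median was -0.02, with Dnajc9 at -0.13 (SE 0.10) and Dnajc6 at -0.12 (SE 0.43). Tmem50a, the paralogue of Tmem50b, was at -0.04 (SE 0.10). The medians of the 8 lists ran from -0.15 (replication fork genes) to 0.06 (purine synthesis genes), and all genes tested had a median of 0.00.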

How the data were processed

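RNA from 9 MEF cultures (4 WT, 5 Dp1Tyb) was sequenced from stranded mRNA libraries. Per the submitters' notes and the methods, the authors trimmed reads with Trim Galore, aligned them to GRCm38 with TopHat2 2.0.12, discarded reads that aligned to several places and counted reads per gene with HTSeq. The deposited values used here are raw counts per Ensembl gene. The strand setting of the counting and its annotation release are not given in the sources used here, so reads of overlapping genes on opposite strands may not be separated. A deposited table of normalised values and a table of the authors' DESeq2 (1.6.3) results (fold changes, p-values) were not used.

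Genes were tested with edgeR 4.0.16 (R 4.3.3): TMM normalisation, filterByExpr, quasi-likelihood F test of genotype without covariates, two-sided, Benjamini-Hochberg over all 14567 genes tested, threshold 0.05. Standard errors were the log2 fold change divided by the square root of F, and 95% intervals used the t distribution of the fit. Normalised counts are counts divided by the TMM effective library size and multiplied by its mean, RPKM used merged exon lengths from GENCODE M21, levels were log2(normalised count + 1), and ratios of members used raw counts + 0.5. Single values were tested by exact permutation over samples (two-sided). DESeq2 1.42.0 was an alternative, as were other scalings, filters, label sets, a replicate block and leaving out each culture. Code was tested on simulated data. All 7 members were named, and of each list the genes that passed the test or else the 2 with the largest absolute log2 fold change, and of the genes most like the mean of the cluster the first 5. The members and lists were chosen with earlier results of these data known. Per the methods, the cultures came from 4 WT and 5 Dp1Tyb littermate embryos, and each culture was taken as 1 replicate. The sum of 1 further marker list is not reported here. Depth was 24804539 to 30009361 counts per library.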

Additional observations from a re-analysis of the deposited data

Results flagged for a closer look

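Within a genotype, 4 of 28 groups of values (the 7 members, the ratios of neighbouring members and the mean of the cluster, by Dixon's criterion) had 1 culture far from the others, where chance gives about 5% of groups. Tmem50b in WT replicate 2 was at 743 normalised counts, above the other 3 WT cultures at 592 to 617. Tmem50b in Dp1Tyb replicate 2 was at 1213, above the other 4 at 814 to 882. Donson in WT replicate 2 was at 135, below the other 3 at 157 to 160, and Itsn1 in WT replicate 1 was at 4882, above the other 3 at 3604 to 3705.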

How the results depend on the processing

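Every one of the 7 members kept a positive log2 fold change under all 19 alternatives to the fit, and the distance from lowest to highest member stayed between 0.46 and 0.80. The mean log2 fold change of the cluster was 0.52 with DESeq2's beta prior and otherwise within 0.59 to 0.66. The number of members called was 4 with DESeq2 (with and without the prior), 1 without a filter on low counts, 1 in the larger label set and 0 with the replicate block, and it ran from 1 to 3 when single cultures were left out. The number of genes called, 24 with all cultures, was 68 with DESeq2, 67 with its beta prior, 10 without both replicate 2 cultures (chosen after seeing the data), 1 in the larger label set and 0 with the replicate block (edgeR, 800 at an unadjusted p below 0.05), and ran from 2 to 26 when single cultures were left out. Several single libraries moved it by over 1.5 times: 14 without Dp1Tyb replicate 1 or 3, 9 without Dp1Tyb replicate 4, 3 without Dp1Tyb replicate 5, 15 without WT replicate 1, 2 without WT replicate 2 or 3 and 8 without WT replicate 4. The Gart minus Son difference was -0.039 in the larger label set and -0.041 without both replicate 2 cultures, and it ran from -0.10 to 0.16 when single cultures were left out. No pair of members passed the adjusted test in any alternative (lowest adjusted p 0.167). With fewer cultures the smallest possible p of the exact permutation test is larger, at 0.0286 in the larger label set. Alternatives that leave out cultures were therefore less able to pass than the main test.

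Shared replicate numbers were not shown to pair the cultures. Same-numbered cultures correlated at 0.0315 to 0.741 in their deviations from the group means, and differently numbered ones at -0.572 to 0.493. Of the 4 same-numbered pairs, 1 correlated best with each other. With the replicate block over replicates 1 to 4, edgeR's adjusted p was 0.0653 for Cryzl1, 0.0982 for Son and 0.137 for Gart, with log2 fold changes of 0.92, 0.68 and 0.80. Under the block the smallest p of a ratio is 0.125, which cannot pass. Dnajc28 had the fewest raw counts of the members, 58 to 117 per culture, and the widest interval. The causes of these changes were not tested.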
